A study of Mus musculus with 6 samples.

Results

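The dystrophin-glycoprotein complex was examined through 8 of its genes, *Dmd*, *Utrn*, *Dag1*, *Sgca*, *Sgcb*, *Sgcd*, *Dtna* and *Sspn*, which were found by gene name among the 27021 genes of the deposited count table. All 8 were present, and all 8 were among the 17146 genes that passed the filter on low counts. The complex spans the plasma membrane of muscle cells. Inside the cell, dystrophin binds actin filaments, and outside it, dystroglycan binds laminin in the basement membrane, so that the contractile apparatus is tied to the extracellular matrix. Loss of dystrophin or of some sarcoglycans leaves the muscle membrane fragile and causes muscular dystrophy, which can come with cardiomyopathy.

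RNA was taken from the heart tissue of 3 control mice (*Immt+/+-Myh6-MCM*) and of 3 mice with the floxed gene (*Immtfl/fl-Myh6-MCM*), and each mouse gave 1 library. *Immt* encodes Mic60, the core subunit of the MICOS complex that shapes the mitochondrial inner membrane, and the study asked how gene expression in the heart changes after its deletion. MCM is a Cre recombinase made inducible by tamoxifen. By the labels both groups carry it, under the cardiomyocyte-specific Myh6 promoter that aims the deletion at cardiomyocytes and not at the other cells of the heart, and both received 3 tamoxifen injections from 6 weeks of age, with hearts collected 20 weeks later. The libraries held 42301627 to 44151674 counts in the control group and 49793058 to 53251529 counts in the *Immtfl/fl-Myh6-MCM* group.

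*Immt* itself was at 663, 453 and 524 CPM (counts scaled to library size with TMM factors) in control hearts and at 23.0, 28.7 and 39.2 CPM in *Immtfl/fl-Myh6-MCM* hearts, which matches the labels. *Esr1*, part of whose sequence the MCM transgene carries, had 144479 to 165400 counts in the control hearts and 71 to 323 counts in the *Immtfl/fl-Myh6-MCM* hearts, so transgene transcript level and *Immt* genotype cannot be told apart here. Whether the transgene itself differed between the groups was not tested. Replicate 3 of each group expressed *Xist* (11605 and 20811 counts), and the remaining hearts had 4 to 16 counts of it. Markers of cardiomyocytes fell for 6 of 8 genes, all but *Tnnt2* and *Mybpc3*. As background for this and the next marker counts, 18.5% of all genes tested fell and 19.9% rose. The summed cardiomyocyte level was 69566 to 74008 CPM in control hearts and 33297 to 43606 CPM in *Immtfl/fl-Myh6-MCM* hearts. Its largest part was *Myh6*, with means of 35939 CPM in control hearts and 19218 CPM in *Immtfl/fl-Myh6-MCM* hearts. The endothelial sum was 1446 to 1600 against 1191 to 1444 CPM (3 of 8 fell), and the sum of smooth muscle and pericyte markers was 1765 to 2011 against 1145 to 1600 CPM (3 of 8 fell and 1 rose). The fibroblast sum was 941 to 1368 against 1063 to 1405 CPM (1 of 8 rose, *Postn*), and the macrophage sum was 204 to 260 against 188 to 517 CPM (1 of 8 rose, *C1qb*). Of 4 skeletal muscle markers tested, *Acta1* rose and 2 fell, and the skeletal myosin genes *Myh1* and *Myh2* stayed below 1 CPM in every heart. In these whole-heart libraries, fewer cells of a type and less RNA per cell cannot be told apart, and the part of these marker levels in the results below was not tested.

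Among the 8 genes, *Dmd* and *Sgcd* rose, *Sspn* and *Sgca* fell, and *Utrn*, *Dag1*, *Sgcb* and *Dtna* did not pass the test (edgeR quasi-likelihood test, adjusted p under 0.05 over all genes tested). The 4 genes that passed compare with a background of 38.4% of all genes tested, made up of 19.9% that rose and 18.5% that fell. Only *Sspn* also changed by more than 2-fold, which 20.5% of all genes tested did. The groups did not overlap for 6 genes, 4 of them higher and 2 lower in every *Immtfl/fl-Myh6-MCM* heart, against 52.8% of all genes tested (26.9% higher and 26.0% lower). The median log2FC of the 8 genes, a log2 fold change of *Immtfl/fl-Myh6-MCM* over control, was 0.15, beside -0.0012 for all genes tested. The summed level of the 8 genes was 1601 to 1613 CPM in control hearts and 1564 to 1653 CPM in *Immtfl/fl-Myh6-MCM* hearts, and these ranges overlapped while single genes moved in opposite directions.

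**Figure D1:**
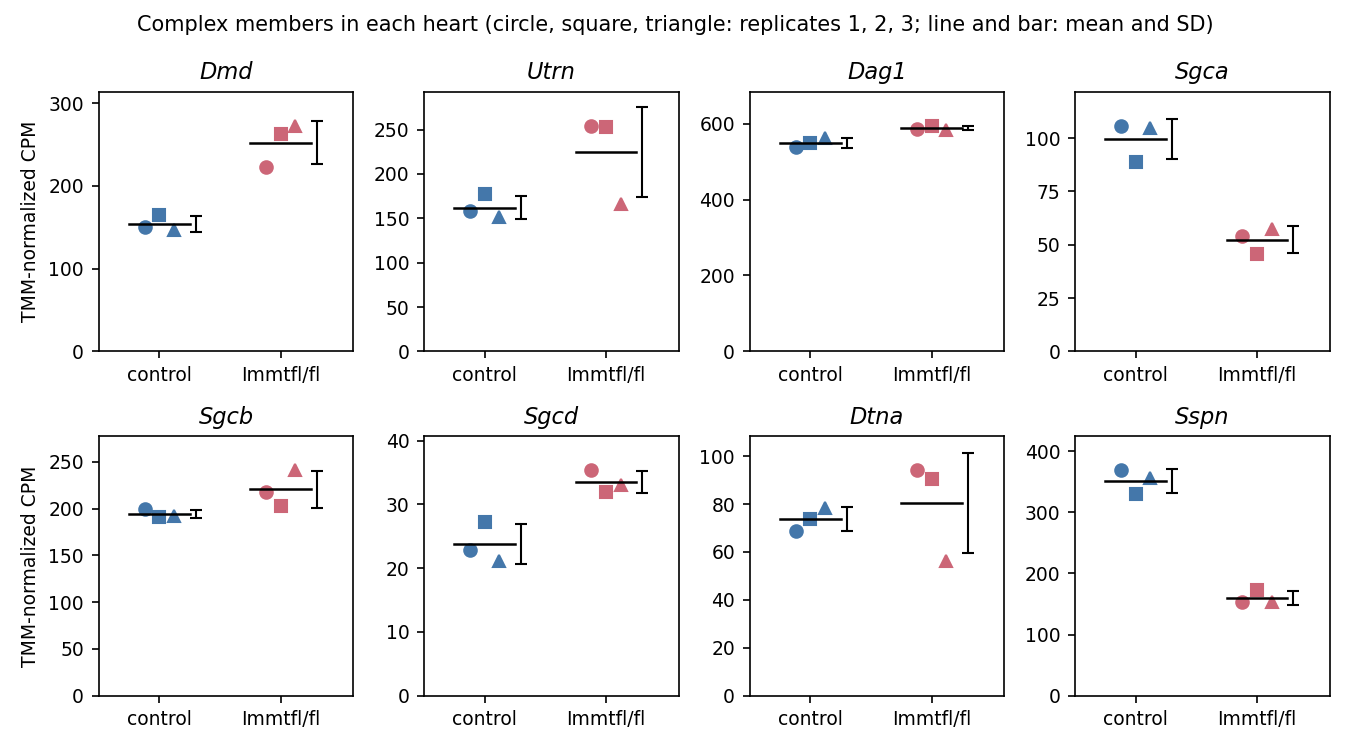
TMM-normalized CPM of the 8 genes in each heart (y axis, starting at 0), control hearts in blue and Immtfl/fl-Myh6-MCM hearts in red, with the group mean as a line and its SD as a bar (n = 3). Dmd and Sgcd lie higher and Sgca and Sspn lower in every Immtfl/fl-Myh6-MCM heart, whereas replicate 3 falls away from the other 2 Immtfl/fl-Myh6-MCM hearts for Utrn and Dtna.

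*Dmd* encodes dystrophin, the long cytoskeletal protein that carries actin binding at one end and dystroglycan binding near the other. The gene lies on chromosome X of GRCm38 (chrX:82948870-85206141, plus strand). Its level was 150, 165 and 146 CPM in control hearts and 223, 262 and 273 CPM in *Immtfl/fl-Myh6-MCM* hearts, so that the lowest of the latter was above the highest control. The mean went from 154 ± 9.99 CPM to 252 ± 26.4 CPM (SD, n = 3), a 1.64-fold rise. The log2FC was 0.71 (standard error 0.123, 95% interval 0.44 to 0.99, adjusted p = 0.00182 from edgeR). Because *Dmd* is X-linked and 1 heart of each group expressed *Xist*, the comparison was also made without both of those hearts, where *Dmd* had a log2FC of 0.62 (edgeR adjusted p = 0.0157). *Dmd* passed in all 15 alternatives, with adjusted p-values of 1.07e-05 to 0.0157.

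Transcripts of *Dmd* start at several places, and a count per gene sums them. Full-length muscle dystrophin starts at the 5′ end of the gene, and short isoforms that lack the actin-binding end start far downstream, so the rise could not be assigned to either from these counts. The 2 start regions matched to *Dmd* from RefSeq (GRCm38.p6) are printed because they differ in sequence content. The first, chrX:82948620-82948919, holds 1 CArG box (the site of serum response factor), 1 MEF2 box and 3 E-boxes (CANNTG, the site of MyoD-type factors). The second, chrX:85048045-85048344, holds none of these and 3 GC boxes (GGGCGG). Both strands were searched, capitals mark the CArG box, MEF2 box, E-boxes and M-CAT motif (CATTCC), and both windows are on the plus strand. Windows of the same length over 32851 annotated starts held a CArG box in 1.63%, a MEF2 box in 3.19%, an E-box in 72.3%, an M-CAT motif in 14.7% and a GC box in 35.7%. These matches are descriptions of the sequence and not evidence of binding.
Dmd, full-length muscle start: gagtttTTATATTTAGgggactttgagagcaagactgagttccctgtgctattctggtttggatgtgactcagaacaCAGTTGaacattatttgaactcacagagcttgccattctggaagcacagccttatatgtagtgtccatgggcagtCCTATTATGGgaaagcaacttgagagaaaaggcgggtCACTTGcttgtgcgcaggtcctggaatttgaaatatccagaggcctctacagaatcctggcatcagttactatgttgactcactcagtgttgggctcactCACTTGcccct
Dmd, downstream start: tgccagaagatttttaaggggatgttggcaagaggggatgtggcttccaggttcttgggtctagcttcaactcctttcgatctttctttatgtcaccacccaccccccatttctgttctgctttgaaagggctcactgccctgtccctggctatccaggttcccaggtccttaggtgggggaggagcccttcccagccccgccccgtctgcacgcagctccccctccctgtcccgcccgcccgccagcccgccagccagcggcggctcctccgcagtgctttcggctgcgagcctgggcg

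*Utrn* encodes utrophin, the autosomal relative of dystrophin that binds the same dystroglycan partner and is found in many cell types, the endothelium among them. It lies on chromosome 10 (chr10:12382188-12869365, minus strand). The control hearts were at 158, 177 and 151 CPM and the *Immtfl/fl-Myh6-MCM* hearts at 254, 253 and 167 CPM. Replicates 1 and 2 of the *Immtfl/fl-Myh6-MCM* group were above all controls, but replicate 3 lay within the control range. The log2FC was 0.47 (standard error 0.171, 95% interval 0.087 to 0.855), and edgeR's adjusted p of 0.0544 missed the threshold. Without *Immtfl/fl-Myh6-MCM* replicate 3 the log2FC was 0.65 with an edgeR adjusted p of 0.00171, so the call changed when this 1 heart was left out. *Utrn* also passed in DESeq2 (adjusted p = 0.0393), without a filter on low counts (0.0267 from edgeR) and with a term for sex (0.0293 from edgeR), and over all 15 alternatives its adjusted p was 0.00171 to 0.172. Without both *Xist*-expressing hearts it was 0.0116. The log2 ratio of *Utrn* to *Dmd* within a heart was 0.05 to 0.10 in control hearts and 0.19, -0.05 and -0.71 in *Immtfl/fl-Myh6-MCM* hearts, and the groups overlapped (exact two-sided permutation test, p = 0.5). The difference was -0.26, -0.45 without *Immtfl/fl-Myh6-MCM* replicate 1 and -0.0017 without *Immtfl/fl-Myh6-MCM* replicate 3.

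*Dag1* encodes the precursor that is cleaved into alpha-dystroglycan, which binds laminin outside the cell, and beta-dystroglycan, which crosses the membrane and binds dystrophin. It lies on chromosome 9 (chr9:108204634-108263958, minus strand). Its level was 537, 548 and 563 CPM in control hearts and 585, 594 and 584 CPM in *Immtfl/fl-Myh6-MCM* hearts. Each *Immtfl/fl-Myh6-MCM* heart was above each control heart, but the groups were only 1.07-fold apart. The log2FC was 0.10 (standard error 0.107, 95% interval -0.14 to 0.34, edgeR adjusted p = 0.511), and with upper-quartile scaling it was -0.0067, so no direction can be given. *Dag1* had the smallest SD between hearts relative to its mean in the *Immtfl/fl-Myh6-MCM* group (588 ± 5.46 CPM, n = 3).

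The sarcoglycans form a tight subcomplex in the muscle membrane that steadies dystroglycan, and sarcospan is the small 4-helix membrane protein that sits with them. Of the 3 sarcoglycans among the 8 genes, *Sgca* fell, *Sgcd* rose and *Sgcb* did not pass the test. *Sgca*, or alpha-sarcoglycan, is made almost only in striated muscle and lies on chromosome 11 (chr11:94962791-94976327, minus strand). Its level was 106, 88.7 and 105 CPM in control hearts and 54.3, 45.5 and 57.5 CPM in *Immtfl/fl-Myh6-MCM* hearts. The groups were well apart, with 52.6% of the control mean left. The log2FC was -0.93 (standard error 0.134, 95% interval -1.23 to -0.63, edgeR adjusted p = 0.000693). It went past 2-fold with upper-quartile scaling (-1.03) and without control replicate 2 (-1.01).

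*Sgcd*, or delta-sarcoglycan, is made in striated and smooth muscle and lies on the same chromosome (chr11:46896253-47988969, minus strand). Its level was 22.9, 27.3 and 21.1 CPM in control hearts and 35.4, 32.0 and 33.0 CPM in *Immtfl/fl-Myh6-MCM* hearts, with no overlap. The log2FC was 0.49 (standard error 0.139, 95% interval 0.18 to 0.81, edgeR adjusted p = 0.0199). This was the least firm of the 4 calls. The edgeR adjusted p was 0.0764 without control replicate 1, 0.0847 without control replicate 3, 0.0597 without *Immtfl/fl-Myh6-MCM* replicate 1, 0.069 without both *Xist*-expressing hearts and 0.0526 with upper-quartile scaling, in a range of 0.00914 to 0.0847 over 15 alternatives.

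*Sgcb*, or beta-sarcoglycan, which pairs with delta-sarcoglycan at the core of the subcomplex, lies on chromosome 5 (chr5:73632749-73647790, minus strand). Control hearts had 200, 191 and 192 CPM and *Immtfl/fl-Myh6-MCM* hearts 218, 202 and 241 CPM. Every *Immtfl/fl-Myh6-MCM* heart was above every control, yet the log2FC of 0.18 (standard error 0.113, 95% interval -0.07 to 0.44) had an edgeR adjusted p of 0.24.

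*Sspn*, or sarcospan, showed the largest change in either direction among the 8 genes. It lies on chromosome 6 (chr6:145931641-145965223, plus strand). Its level was 369, 329 and 355 CPM in control hearts and 153, 174 and 153 CPM in *Immtfl/fl-Myh6-MCM* hearts. No *Immtfl/fl-Myh6-MCM* heart came near the lowest control, and 45.5% of the control mean was left. The log2FC was -1.13 (standard error 0.115, 95% interval -1.39 to -0.87, edgeR adjusted p = 0.0001), and the call held in all 15 alternatives. The 8 cardiomyocyte markers had a median log2FC of -1.04, and their part in the falls of *Sspn* and *Sgca* was not tested. An antisense gene, *Sspnos*, overlaps 69 exonic bases of *Sspn* but had 294 counts over the 6 libraries against 68555 counts for *Sspn*. Across the 6 hearts, 13730 genes were compared with *Sspn* by log2 CPM, each centred on its control mean. The nearest were *Zfp963* (root mean square difference 0.0587), *Cacna2d1* (0.0667), a calcium channel auxiliary subunit, and *Mylk3* (0.0677), a cardiac myosin light chain kinase. Their log2FC values of -1.12, -1.17 and -1.14 were close to that of *Sspn*, which this measure favours. *Zfp963* was at low means of 1.94 CPM in control hearts and 0.89 CPM in *Immtfl/fl-Myh6-MCM* hearts.

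Start regions of the other 3 genes that passed are printed from RefSeq for GRCm38.p6, with the same capitals as for *Dmd*. The gene models hold 4 start sites for *Sgca*, 4 for *Sgcd* and 3 for *Sspn*. Not all of them lie in these windows, and a count per gene sums over all starts. The window of *Sgca* (chr11:94976278-94976577, minus strand) holds 2 E-boxes. That of *Sgcd* (chr11:47379276-47379575, minus strand) holds 2 E-boxes, 1 M-CAT motif and 1 GC box. *Sspn* has 2 start windows on the plus strand, chr6:145931623-145931922 and chr6:145933872-145934171, each with 1 M-CAT motif, and the second also with 1 E-box. No window of these 3 genes holds a CArG or MEF2 box as searched.
Sgca start: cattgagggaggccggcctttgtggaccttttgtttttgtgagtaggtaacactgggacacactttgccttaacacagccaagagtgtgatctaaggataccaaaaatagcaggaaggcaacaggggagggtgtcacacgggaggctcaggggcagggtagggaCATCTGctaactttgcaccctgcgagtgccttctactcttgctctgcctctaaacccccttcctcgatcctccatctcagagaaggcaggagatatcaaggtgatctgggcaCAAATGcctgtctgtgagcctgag
Sgcd start: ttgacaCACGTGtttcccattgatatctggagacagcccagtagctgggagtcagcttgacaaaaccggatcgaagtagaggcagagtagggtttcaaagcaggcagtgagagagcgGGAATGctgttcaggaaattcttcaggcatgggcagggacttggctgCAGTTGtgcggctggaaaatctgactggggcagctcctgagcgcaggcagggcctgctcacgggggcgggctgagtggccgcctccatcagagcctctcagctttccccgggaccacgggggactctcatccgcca
Sspn, first start: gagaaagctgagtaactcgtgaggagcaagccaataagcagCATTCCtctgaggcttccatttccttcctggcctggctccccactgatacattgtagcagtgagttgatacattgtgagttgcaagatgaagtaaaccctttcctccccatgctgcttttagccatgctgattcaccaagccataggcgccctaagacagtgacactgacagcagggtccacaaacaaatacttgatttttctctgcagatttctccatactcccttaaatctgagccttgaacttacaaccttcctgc
Sspn, second start: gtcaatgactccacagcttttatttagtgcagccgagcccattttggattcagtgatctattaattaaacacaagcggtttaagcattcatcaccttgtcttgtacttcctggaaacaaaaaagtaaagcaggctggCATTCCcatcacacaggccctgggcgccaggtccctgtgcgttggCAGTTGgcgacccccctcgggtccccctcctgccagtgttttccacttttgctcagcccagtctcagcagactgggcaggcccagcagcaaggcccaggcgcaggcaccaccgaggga

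*Dtna* encodes alpha-dystrobrevin, a cytoplasmic relative of dystrophin that holds syntrophins in the complex. It lies on chromosome 18 (chr18:23415135-23659715, plus strand). Control hearts were at 68.6, 73.8 and 78.5 CPM and *Immtfl/fl-Myh6-MCM* hearts at 94.2, 90.6 and 56.3 CPM. As for *Utrn*, replicates 1 and 2 of the *Immtfl/fl-Myh6-MCM* group were above every control while replicate 3 was not, and here it was below every control. The log2FC was 0.13 (standard error 0.187, 95% interval -0.30 to 0.55, edgeR adjusted p = 0.634). Without *Immtfl/fl-Myh6-MCM* replicate 3 the log2FC was 0.33 with an edgeR adjusted p of 0.0377, and without both *Xist*-expressing hearts it was 0.38 with 0.0468. Over 15 alternatives the adjusted p was 0.0377 to 0.975. The antisense gene *Gm47898* overlaps 90 exonic bases of *Dtna* but had 38 counts over the 6 libraries.

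Among other subunits and direct partners of the complex, the dystrobrevin *Dtnb* rose most firmly. Of 9 found, 7 were tested, of which 3 rose and 4 did not pass, beside 19.9% of all genes tested that rose. Their median log2FC of 0.83 was the value of *Sntg2* itself, a gene below 1 CPM in every heart, for which leaving out control replicate 3 gave 0.24 and leaving out control replicate 2 gave 1.88. The 3 that rose were a dystrobrevin, a syntrophin and a dystrophin relative, and each was past 2-fold, as were 9.91% of all genes tested in that direction. *Dtnb* encodes beta-dystrobrevin, known mostly from brain and kidney. It was at 2.76, 3.64 and 2.91 CPM in control hearts and 13.6, 13.0 and 9.70 CPM in *Immtfl/fl-Myh6-MCM* hearts. Its log2FC was 1.96 (standard error 0.228, edgeR adjusted p = 0.000207), and it passed in every alternative run.

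The remaining 2 that rose were at low levels and less firm. *Sntb1*, or beta-1-syntrophin, went from 8.03, 4.09 and 7.31 CPM to 17.0, 18.5 and 8.54 CPM (log2FC 1.18, edgeR adjusted p = 0.0247). *Drp2*, a dystrophin relative known from Schwann cells, went from 0.268, 1.29 and 0.293 CPM to 2.43, 2.25 and 1.74 CPM (log2FC 1.79, edgeR adjusted p = 0.0406). In both genes no *Immtfl/fl-Myh6-MCM* heart fell within the control range. The edgeR adjusted p of *Sntb1* was 0.0631 without control replicate 2, 0.0563 without control replicate 3, 0.0633 without *Immtfl/fl-Myh6-MCM* replicate 1 and 0.078 without replicate 2, in a range of 0.00193 to 0.078 over 15 alternatives. That of *Drp2* was 0.124 without control replicate 1, 0.131 without control replicate 3, 0.0896 without *Immtfl/fl-Myh6-MCM* replicate 1 and 0.0908 without replicate 2. Upper-quartile scaling gave *Drp2* 0.0516 and leaving out both *Xist*-expressing hearts 0.126, in a range of 0.00211 to 0.131.

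*Sgce*, or epsilon-sarcoglycan, which takes the place of alpha-sarcoglycan outside striated muscle, was at 16.0, 18.6 and 13.5 CPM and at 14.5, 13.0 and 13.7 CPM (log2FC -0.22, edgeR adjusted p = 0.339). The muscle caveolin *Cav3*, which binds beta-dystroglycan, was at 30.5, 27.3 and 32.0 CPM and at 17.6, 17.5 and 37.2 CPM (log2FC -0.31, edgeR adjusted p = 0.422). Here again replicate 3 of the *Immtfl/fl-Myh6-MCM* group differed from the other 2, and without it *Cav3* had a log2FC of -0.77 and an adjusted p of 0.00178, in a range of 0.00178 to 0.789 over 15 alternatives. Without both *Xist*-expressing hearts its adjusted p was 0.00979. *Sntb2* (log2FC -0.0013, edgeR adjusted p = 0.995) and *Sntg2* (0.83, adjusted p = 0.54, below 1 CPM in every heart) did not pass. *Sntg1* and *Nos1*, the neuronal nitric oxide synthase that syntrophin anchors, were below the filter, *Nos1* with 0 to 14 counts per library.

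**Figure D2:**
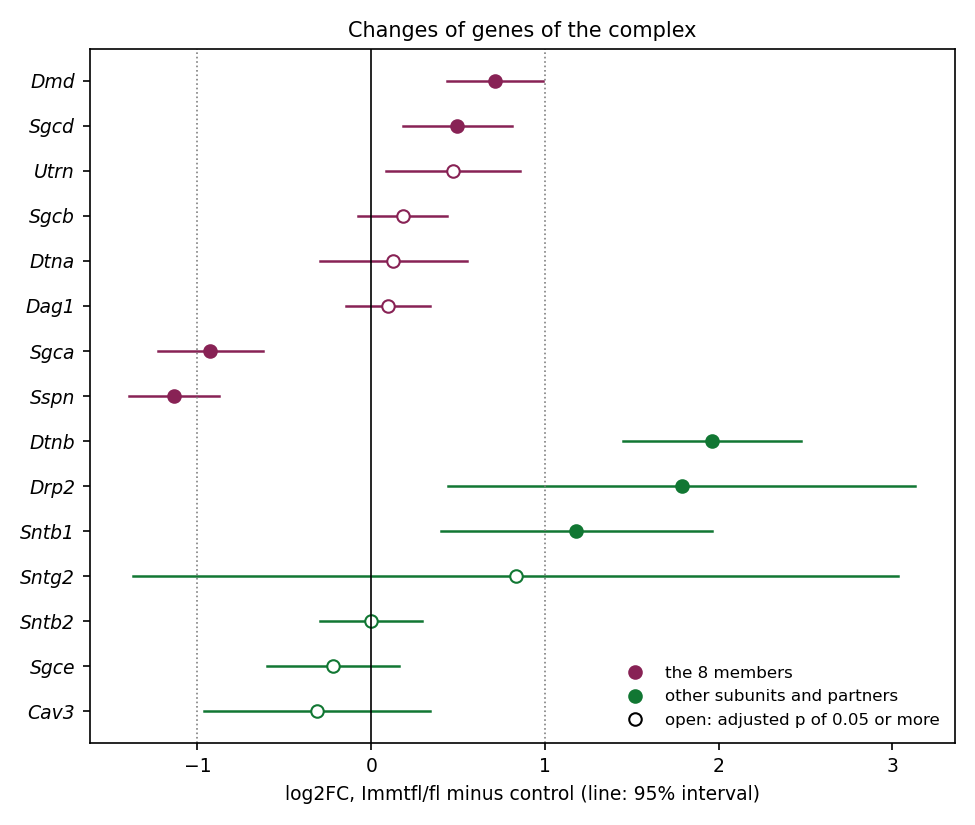
log2FC (x axis, Immtfl/fl-Myh6-MCM over control, 3 hearts each) of the 8 genes and of 7 tested other subunits and partners, with 95% intervals derived from the edgeR fit. Filled points had an adjusted p under 0.05 and dotted lines mark 2-fold. Sspn is the only one of the 8 genes past 2-fold, and Dtnb, Sntb1 and Drp2 rose by more than 2-fold.

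The balance between genes was read as the log2 ratio of their CPM within each heart, which does not depend on the scaling of libraries. For 7 of 9 ratios the groups did not overlap, where an exact two-sided permutation test of 3 hearts against 3 gives its smallest p of 0.1 (0.129 adjusted over the 9 ratios). No share of non-overlap was computed for ratios of other genes, and the 52.8% of single genes tested that did not overlap is not a like measure. In addition, 7 of the 9 ratios share *Dmd* as denominator, so its rise enters each of them. *Sspn* stood at 2.28 times *Dmd* in control hearts (geometric mean) and at 0.635 times in *Immtfl/fl-Myh6-MCM* hearts, a log2 difference of -1.85. *Sgca* to *Dmd* differed by -1.64, *Dtna* to *Dmd* by -0.62, *Dag1* to *Dmd* by -0.61 and *Sgcb* to *Dmd* by -0.53, and the numerators *Dtna*, *Dag1* and *Sgcb* had not passed the test themselves. Without *Immtfl/fl-Myh6-MCM* replicate 3, *Dtna* to *Dmd* differed by -0.32. Within the sarcoglycans, *Sgce* to *Sgca* was higher by 0.72. *Dtnb* to *Dtna* went from 0.0425 to 0.153, a log2 difference of 1.85. Besides *Utrn* to *Dmd*, only *Sgcd* to *Dmd* overlapped between the groups, with a difference of -0.21 (exact p = 0.3). Without *Immtfl/fl-Myh6-MCM* replicate 1 it was -0.34 and the groups no longer overlapped.

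**Figure D3:**
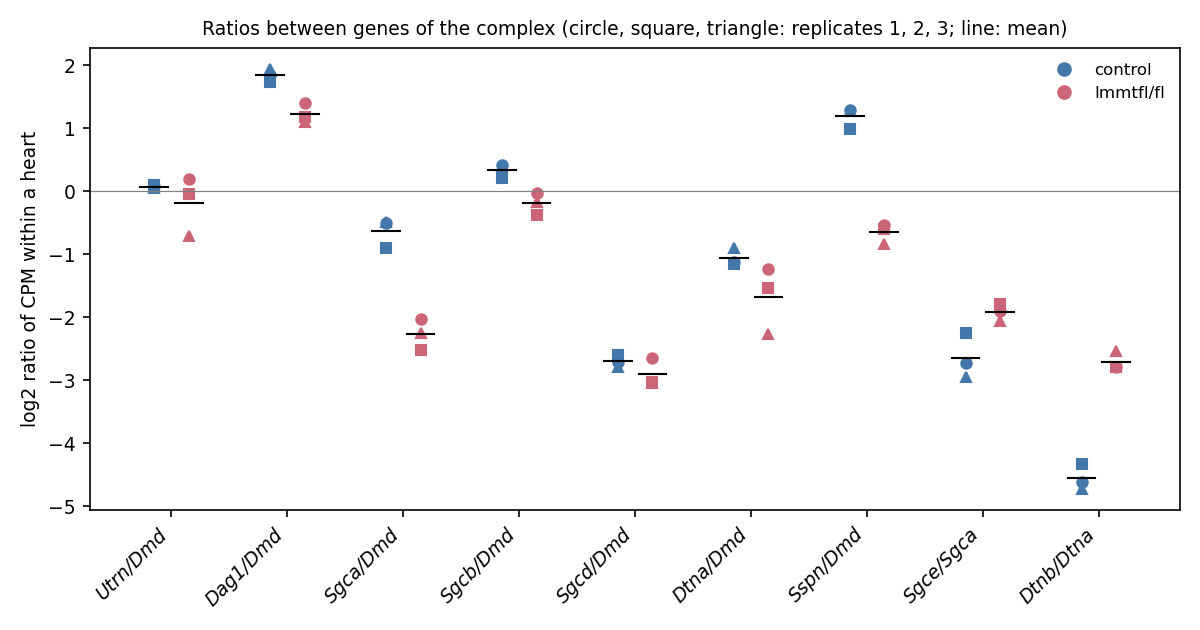
log2 ratio of CPM between pairs of genes (y axis) in each control heart (blue) and Immtfl/fl-Myh6-MCM heart (red), with group means as lines. The ratios of Sspn and Sgca to Dmd are lower and Dtnb to Dtna is higher in all 3 Immtfl/fl-Myh6-MCM hearts, while Utrn to Dmd and Sgcd to Dmd overlap between the groups.

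Levels of different genes were compared as CPM per kilobase of exonic gene length. That length joins the exons of all annotated transcripts, 14 for *Dmd* and 10 for *Dtna*, and can exceed the length of the transcripts expressed. In control hearts the order was *Dag1* (86.5 CPM per kilobase), *Sspn* (70.3), *Sgca* (57.4), *Sgcb* (48.0), *Utrn* (9.47), *Dmd* (6.47), *Dtna* (4.35) and *Sgcd* (2.88), and no neighbours in it overlapped over the 3 hearts. In *Immtfl/fl-Myh6-MCM* hearts *Dag1* stayed first at 92.5 CPM per kilobase, and *Sgcb* moved to the second place at 54.4, ahead of *Sspn* (32.0) and *Sgca* (30.2), whose ranges overlapped. *Utrn* (13.1 CPM per kilobase) and *Dmd* (10.6) overlapped each other, as did *Dtna* (4.75) and *Sgcd* (4.05). The labels describe priming from the poly-A tail, and where reads gather at the 3′ end a level per kilobase is too low for long transcripts such as *Dmd* and *Utrn*, so this order holds between genes only as far as the length scaling does.

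Alpha-dystroglycan binds laminin only after a sugar chain is built on it. Of 16 enzymes of that pathway found, 15 were tested, with 3 higher and 6 lower at the threshold, beside 19.9% higher and 18.5% lower of all genes tested, and a median log2FC of -0.22. *Pomgnt2*, which adds an early sugar to the chain, was at 11.6, 11.8 and 12.8 CPM in control hearts and 5.33, 4.21 and 4.28 CPM in *Immtfl/fl-Myh6-MCM* hearts (log2FC -1.39, edgeR adjusted p = 0.000538). *B3galnt2*, which acts on the same chain after *Pomgnt2*, rose from 36.5, 41.4 and 31.2 CPM to 74.5, 84.8 and 54.3 CPM (log2FC 0.97, edgeR adjusted p = 0.00264). Neighbouring steps of the same core sugar went in opposite directions, with no overlap between the groups in either gene. *B4gat1*, which primes the laminin-binding repeat, fell with a log2FC of -0.83 (edgeR adjusted p = 0.00329). *Pomt1*, a subunit of the enzyme that starts the chain, went from 15.2, 14.7 and 16.2 CPM to 9.28, 8.69 and 6.78 CPM (log2FC -0.90, edgeR adjusted p = 0.00393).

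The matrix ligand list held genes of proteins that dystroglycan binds, together with beta and gamma chains of laminin. Of its genes, 9 of 10 were tested, and 0 rose and 3 fell in edgeR, beside 19.9% and 18.5% of all genes tested. Their median log2FC was -0.44. DESeq2 also called 0 higher, where it called 3688 of all genes tested higher. At an unadjusted p under 0.05 in edgeR 0 ligands were higher and 5 lower. The share of all genes at that unadjusted threshold was not computed, so these counts have no background. *Lama4*, a laminin chain of blood vessel and muscle basement membranes, was at 148, 113 and 133 CPM in control hearts and 69.5, 65.8 and 40.0 CPM in *Immtfl/fl-Myh6-MCM* hearts (log2FC -1.17, edgeR adjusted p = 0.00244). *Lama5* fell with a log2FC of -0.60 (adjusted p = 0.00966), and *Egflam*, or pikachurin, with -0.86 (0.0207, but 0.0658 without control replicate 1, 0.0854 without control replicate 3 and 0.0709 without both *Xist*-expressing hearts, in a range of 0.00329 to 0.0854). *Lama2*, the laminin chain whose loss causes congenital muscular dystrophy, was at 189, 212 and 180 CPM and at 159, 159 and 110 CPM (log2FC -0.44, adjusted p = 0.0526) and was named after its values were seen. Each of these 4 genes had its lowest value in replicate 3 of the *Immtfl/fl-Myh6-MCM* group, as had 9 of the 10 ligands found. So had 7 of 8 endothelial and 6 of 8 smooth muscle and pericyte markers, and 3 of 8 macrophage markers. It was 2 of 8 each for the fibroblast and cardiomyocyte markers and 1 of 7 for the skeletal muscle markers. The share of all genes with their lowest value in that heart was not computed. The part of these markers in the ligand values was not tested.

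A further list held 14 tested genes for proteins that tie the membrane to the cytoskeleton in parallel with the complex, or repair it. Of these, 7 rose and 4 fell, beside 19.9% and 18.5% of all genes tested. Past 2-fold, 4 rose, beside 9.91%, namely the keratins *Krt18* and *Krt8*, and *Flnc* and *Des*. Their median log2FC was 0.40. *Krt18*, an epithelial keratin, was at 0.161 to 0.587 CPM in control hearts and 30.5, 29.1 and 33.4 CPM in *Immtfl/fl-Myh6-MCM* hearts (log2FC 6.26, standard error 0.347, edgeR adjusted p = 4.5e-06). *Krt8* went from 0, 0.198 and 0 CPM to 2.09, 2.23 and 2.65 CPM (log2FC 5.06, edgeR adjusted p = 0.00264). Reads of a keratin can be shared with its pseudogenes, which was not tested, so these keratin values are uncertain. *Flnc*, or filamin C, which binds sarcoglycans and the Z-disc, went from 422, 681 and 548 CPM to 1364, 1452 and 1656 CPM (log2FC 1.44, edgeR adjusted p = 0.000332). *Des*, the muscle intermediate filament desmin, went from 1719, 1776 and 2040 CPM to 3455, 4016 and 3790 CPM (log2FC 1.02, adjusted p = 0.000389). *Tln2*, a talin that links integrins to actin in muscle, fell from 173, 166 and 168 CPM to 92.9, 94.3 and 85.5 CPM (log2FC -0.89, adjusted p = 0.000245). *Krt18*, *Flnc*, *Des* and *Tln2* passed in every alternative run.

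**Figure D4:**
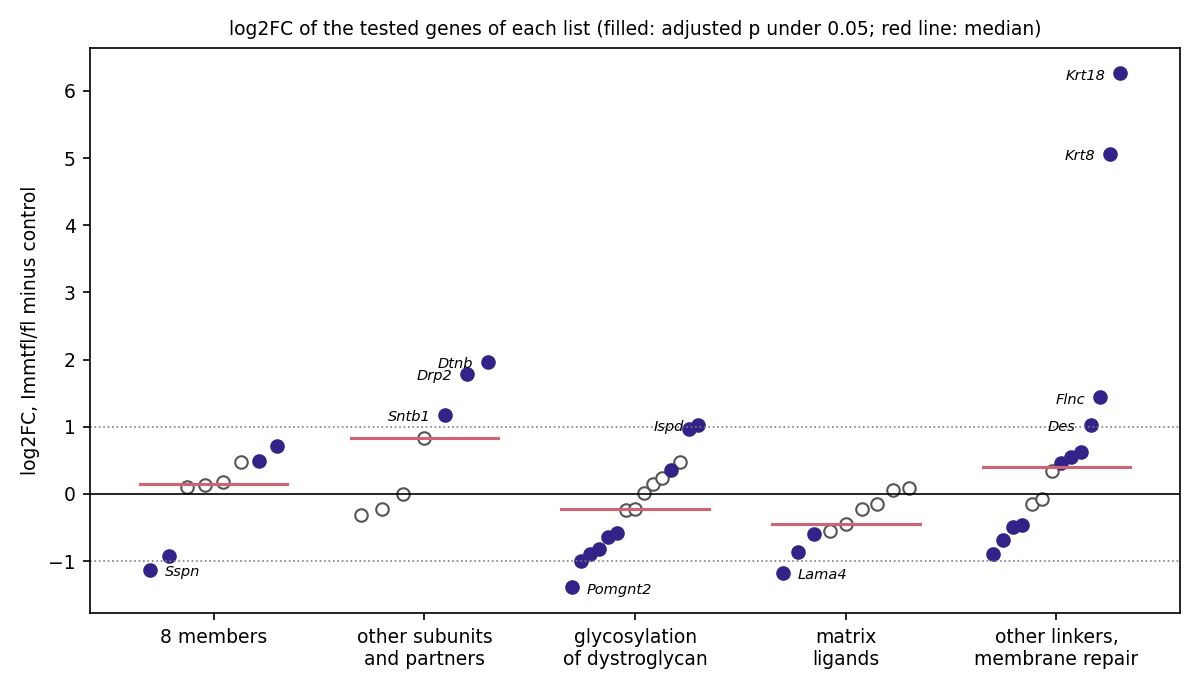
log2FC (y axis) of each tested gene in the 5 lists (x axis), sorted within a list; filled points had an adjusted p under 0.05, red lines are list medians and dotted lines mark 2-fold, with genes past both thresholds named. The 8 genes have a median of 0.15 and the matrix ligands one of -0.44, and the keratins lie far above all others.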

How the data were processed

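Heart RNA of 3 *Immt+/+-Myh6-MCM* and 3 *Immtfl/fl-Myh6-MCM* mice was compared as 1 table of 27021 genes. The submitters' processing notes name GRCm38/mm10 as the builds and, as tools, Subread 2.1.1 (with featureCounts), STAR 2.7.11, edgeR 4.0.16 and SAMtools 1.22.1. Whether counting used strand or molecular identifiers was not given in the sources used here. Reads of a gene and its antisense partner therefore cannot be told apart. The authors deposited raw counts per gene, which were the only values tested. The deposited signal, the counts divided by a size factor per library, and the deposited FPKM values were not used. Log2 fold changes and p-values that the authors deposited hold their own comparison of the groups and were not used.

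The filter was filterByExpr of edgeR, with a count of 10 and a total of 15 as its minimums. Counts were scaled by TMM and tested by edgeR 4.0.16 (glmQLFit with robust dispersion, glmQLFTest, R 4.3.3), with Benjamini-Hochberg adjustment over the 17146 genes. Rose and fell mean an adjusted p under 0.05, and past 2-fold also means a log2FC beyond 1 in size. The standard error of a log2FC was derived as its absolute value divided by the square root of the edgeR F statistic. The 95% intervals add and subtract that standard error times a t quantile at the degrees of freedom of the same fit. Ratios within a heart were taken on log2 CPM (prior count of 2) and compared by an exact two-sided permutation test, whose smallest p is 0.1. The scripts were tested on simulated data with known changes.

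The 8 members and all gene lists were chosen with earlier results of these data known. Genes named were the 8 members, any other subunit or partner of the complex, up to 4 genes per further list with the smallest p among those that passed, the 3 genes nearest to a member past both thresholds, and *Immt*, *Esr1* and *Xist* as checks. *Lama2*, *Krt8* and the marker genes named singly were added afterwards. Start regions and their motif counts came from RefSeq (GRCm38.p6) and gene models from GENCODE M21, which holds 26984 of the 27021 identifiers. Sequences of *Dtna* are not shown, and some genes of the lists, with 1 planned ratio, are not reported here and were left out of the list counts. The individual mouse was the replicate. Depth was 42301627 to 44151674 counts in control and 49793058 to 53251529 counts in *Immtfl/fl-Myh6-MCM* libraries, and the 10 most abundant genes took 25.2% to 28.2% and 11.4% to 12.9% of them.

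Alternatives were the DESeq2 1.42.0 Wald test, scaling by upper-quartile or RLE factors, no filter, a filter at a mean CPM of 1, the replicate number as a block, a term for sex, removal of mitochondrially encoded genes, a prior count of 0.5 for ratios and leaving out each library. Leaving out both *Xist*-expressing hearts was added after seeing the data.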

Additional observations from a re-analysis of the deposited data

How the results depend on the processing

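*Dmd*, *Sgca* and *Sspn* kept their direction and their call in all 15 alternatives. No ratio reversed, and neither did any called gene for which the alternatives were run. Upper-quartile factors moved the median log2FC of all genes by -0.104 and left 1 of the 8 genes higher at the adjusted p and 2 lower past 2-fold. With them 2 glycosylation enzymes were higher at the adjusted p but 0 past 2-fold, 3 were lower past 2-fold, and 5 ligands were lower. DESeq2 also called 5 ligands lower. Over all genes tested, 3791 were lower with upper-quartile factors and 3539 with DESeq2, against 3172 in the main fit. Those higher were 2869 and 3688, against 3418. The stricter filter, the term for sex and the replicate block each gave 2 glycosylation enzymes lower past 2-fold, and without both *Xist*-expressing hearts, an alternative chosen after seeing the data, 0 ligands were lower past 2-fold and 1 of the other subunits and partners, *Cav3*, was lower.

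Leaving out 1 library at a time gave 1 to 4 of the 8 genes higher (1 without control replicate 1 or 3 or *Immtfl/fl-Myh6-MCM* replicate 1, and 4 without *Immtfl/fl-Myh6-MCM* replicate 3) and 1 to 2 lower past 2-fold (2 without control replicate 2). The other subunits and partners had 1 to 3 higher, 1 to 3 higher past 2-fold and 0 to 1 lower. Glycosylation enzymes had 0 to 2 higher past 2-fold and 1 to 2 lower past 2-fold, and ligands had 0 to 2 lower past 2-fold. The calls over all genes tested moved too. Against 3418 higher in the main fit, 2660 were higher without control replicate 1 and 2668 without control replicate 3. Without *Immtfl/fl-Myh6-MCM* replicate 1 there were 3021, and without *Immtfl/fl-Myh6-MCM* replicate 3 there were 3466. Each of these comparisons had 1 heart fewer, and other causes were not tested.

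Same-numbered hearts had correlations of 0.0141, -0.0376 and 0.0141 of their deviations from the group means. With so few hearts these values cannot decide whether the replicate numbers pair the hearts. Replicate 3 expressed *Xist* in both groups, so the replicate block also holds that difference. With the replicate block, 2921 genes were higher and 2737 lower, against 3418 and 3172 without it. The 8 genes still had 2 higher and 2 lower, and *Sntb1* lost its call (edgeR adjusted p = 0.0508). The 95% intervals of *Dag1*, *Sgcb* and *Dtna* included 0, so a change of either sign within them remains possible. The low counts of *Drp2* and *Sntg2* came with wide intervals.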
